A study of Mus musculus with 6 samples.

Results

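The genes described here are 36 genes of programmed cell death and of the p53 stress response, chosen by name. A gene was measured where at least 1 row of the value table was annotated to exactly that symbol, and the brightest row over the 6 arrays was used for each gene. This held for 33 of the 36, of 19938 genes tested in all. Trp53, the p53 gene itself, Bax and Ripk1 were not analysed here, so p53 is described only through its inhibitor and targets, and the pore-forming pair Bax and Bak1 only through Bak1. The 3 conditional knockout (cKO) samples were small intestine of mouse embryos at E18.5 with the genotype E-cadherin cKO, and the 3 controls were wild-type small intestine of the same stage. The sources used here name neither the Cre driver nor the deleted exons, nor do they say whether each sample came from a separate embryo. The p-values therefore measure only how far these samples spread, and that spread may be technical.

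Apoptosis can start inside the cell or at its surface. In the intrinsic route, proteins of the Bcl2 family that carry only a BH3 domain release Bax and Bak from pro-survival relatives, mitochondria leak cytochrome c, and Apaf1 with caspase-9 switches on the effector caspases. In the extrinsic route, death receptors recruit Fadd and caspase-8. Where caspase-8 is blocked, Ripk3 and Mlkl can kill by necroptosis instead. The p53 protein feeds the intrinsic route and also induces genes of cell cycle arrest and repair. In the intestine, epithelial cells that lose their attachment are known to die by a form of apoptosis called anoikis.

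Values are the authors' expression values per probe set, read as log2, and a difference is cKO minus control, so that a difference of 1 is a 2-fold change. Each gene was tested with limma over all genes, with a threshold of 0.05 on the Benjamini-Hochberg adjusted p, and each difference is given with its moderated standard error (SE). Cdh1, the E-cadherin gene, read 9.70, 8.38 and 8.91 in cKO 1, 2 and 3 and 9.86, 9.82 and 10.15 in controls 1, 2 and 3. The cKO values all lay below the controls, but cKO 1 only narrowly. The difference was -0.95 (SE 0.31, adjusted p = 0.088), with p = 0.1 in the exact two-sided permutation test, the smallest that 3 against 3 arrays allow. Without cKO 1 it was -1.30 and passed (adjusted p = 0.012). On cKO 2 the median probe set lay at 6.17, against 6.44 to 6.50 on the other arrays. The level under which 95% of 1227 olfactory, vomeronasal and taste receptor genes fell, taken as background, was 5.79 to 6.25 on the cKO arrays and 6.19 to 6.36 on the control arrays.

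The death and p53 genes did not move as a group. Of the 33 measured members, Plk2, Plk3 and Ripk3 rose in the cKO intestine and Casp6, Casp9 and Sesn2 fell, while 27 did not pass the threshold. The members that rose did so by 0.88 to 1.14, and Casp6 fell by 1.16 on the log2 scale. With 6 of 33 called (18.2%), the share is near that over all genes, where 2825 of 19938 (14.2%) were called, so the count says nothing particular of these genes. Over all genes 1358 (6.81%) were higher and 1467 (7.36%) lower, but after quantile normalization more were higher (1830) than lower (1413), as after median centring (1490 and 1091). The median difference of the members was -0.10, against -0.09 over all genes tested. The cKO and control values did not overlap for 15 members (45.5%), 7 higher and 8 lower, beside 35.4% of all genes (16.0% higher and 19.3% lower).

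**Figure D1:**
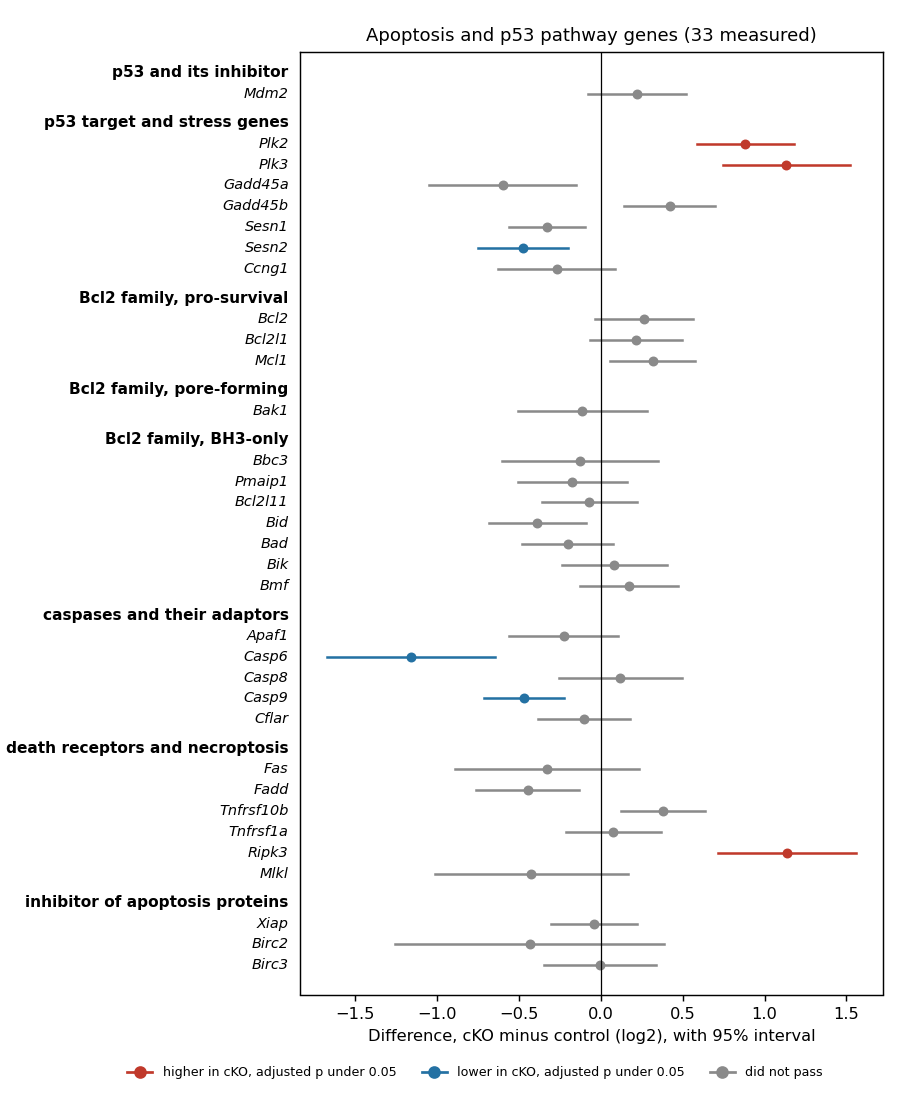
Difference between cKO and control (log2, horizontal axis) of the 33 measured members with limma's 95% interval, grouped by role. Red points passed the threshold as higher, blue points as lower and grey points did not pass. The 11 Bcl2 family genes are all grey, and the 6 coloured genes lie among the p53 target, caspase and necroptosis groups.

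Among the 7 measured p53 target and stress genes, 2 rose and 1 fell, beside 6.81% and 7.36% of all genes. Their median difference was -0.27, against -0.09 over all genes. The genes that rose encode a pair of related polo-like kinases, which cells induce after stress and mitogens, Plk2 being a p53 target. Plk2 read 9.03, 9.36 and 9.27 in cKO 1, 2 and 3 and 8.30, 8.30 and 8.41 in controls 1, 2 and 3. Every cKO array was above every control array. The difference was 0.88 (SE 0.13, adjusted p = 0.0048), or 1.84-fold. Plk3 read 6.94, 7.47 and 7.25 in the cKO arrays and 5.90, 6.19 and 6.17 in the control arrays. The groups did not overlap, and all 3 control values lay at or below background, so the measured difference of 1.13 (SE 0.17, adjusted p = 0.0053) is not exact and the gene was at least 1.93-fold higher.

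Both kinases passed under all 13 alternative settings, which include each array left out in turn. Their promoters are printed because these related genes rose together. The window runs from 250 bases before to 50 bases after the start site (RefSeq, GRCm38.p6, shown 5′ to 3′ on the gene's strand). Capitals mark the cAMP response element TGACGTCA and its core TGACG on either strand, and the core lies within the full element. The Plk2 window is chr13:110394794-110395093 (plus strand) and that of Plk3 is chr4:117133914-117134213 (minus strand).
Plk2: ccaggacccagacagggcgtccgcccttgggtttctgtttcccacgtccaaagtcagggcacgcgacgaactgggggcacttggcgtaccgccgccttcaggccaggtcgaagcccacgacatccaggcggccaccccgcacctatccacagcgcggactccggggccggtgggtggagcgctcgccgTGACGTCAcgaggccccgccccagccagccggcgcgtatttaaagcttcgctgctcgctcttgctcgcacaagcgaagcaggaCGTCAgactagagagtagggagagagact
Plk3: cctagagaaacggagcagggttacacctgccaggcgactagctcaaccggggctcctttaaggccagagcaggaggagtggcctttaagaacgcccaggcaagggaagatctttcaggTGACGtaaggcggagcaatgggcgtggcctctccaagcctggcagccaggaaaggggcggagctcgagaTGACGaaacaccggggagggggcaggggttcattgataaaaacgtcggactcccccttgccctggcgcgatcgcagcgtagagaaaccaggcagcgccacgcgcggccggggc

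Plk2 held the full element at position -62 from the start site and a further core on the other strand. Plk3 held no full element and a core at positions -132 and -63. Of 32851 promoter windows in all, 1.79% held the full element and 20.8% the core. Over the 42 windows that matched 30 of the measured members, 2 held the full element (4.76%) and 11 the core (26.2%). The other member with the full element was Birc2, which did not pass the threshold (difference -0.43). The core also stood in windows of Bbc3, Bcl2, Birc2, Bmf, Mcl1, Mdm2, Sesn1 and Xiap, none of which passed under the reported setting. A match is a description of the letters and not a bound site.

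The sestrin genes Sesn1 and Sesn2 encode stress-induced proteins that restrain the growth kinase mTOR, and both are p53 targets. Sesn2 read 6.90, 6.91 and 6.87 in the cKO arrays and 7.30, 7.27 and 7.54 in the control arrays. The cKO arrays were close together and all lower. The difference was -0.48 (SE 0.12, adjusted p = 0.036), a call that was lost when any 1 of the 6 arrays was left out (adjusted p = 0.053 to 0.11) and with median centring (0.13). Sesn1 read 7.92, 7.88 and 7.90 in the cKO arrays and 8.25, 8.21 and 8.23 in the control arrays. Its groups were tight and apart, yet the difference of -0.33 (SE 0.10) did not pass (adjusted p = 0.071). Sesn3, a sestrin gene outside the members, differed less (-0.13, SE 0.11, adjusted p = 0.47), though it was lower on every cKO array.

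Gadd45a and Gadd45b encode stress-induced proteins that act on the cell cycle and on kinase signalling, the first a classical p53 target. Gadd45a read 8.62, 8.37 and 8.57 in the cKO arrays and 8.89, 8.93 and 9.54 in the control arrays. The values of the cKO arrays were all lower, but control 3 stood above the other controls, and the difference of -0.60 (SE 0.19) did not pass (adjusted p = 0.084). Gadd45b read 7.96, 7.96 and 8.21 in the cKO arrays and 7.67, 7.63 and 7.57 in the control arrays. The cKO values were all higher, and the difference of 0.42 (SE 0.12, adjusted p = 0.057) just missed the threshold. It passed under 5 of the 13 alternatives.

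Mdm2, which marks p53 for destruction and is itself induced by p53, read 7.95, 8.20 and 8.21 in the cKO arrays and 7.93, 8.0 and 7.77 in the control arrays. The groups overlapped, and the difference was 0.22 (95% interval -0.08 to 0.52, adjusted p = 0.31). Ccng1, the cyclin G1 gene and a p53 target, read 10.52, 9.97 and 10.28 in the cKO arrays and 10.52, 10.53 and 10.53 in the control arrays. Its control values were nearly equal, while cKO 1 lay with them and cKO 2 lowest (difference -0.27, 95% interval -0.63 to 0.09, adjusted p = 0.30). This difference was -0.13 without cKO 2 and -0.14 with quantile normalization. The promoters of Mdm2 and Ccng1 are printed because both hold a p53 half-site, in capitals, in the same window. The Mdm2 window is chr10:117710709-117711008 and that of Ccng1 is chr11:40755237-40755536, both on the minus strand.
Mdm2: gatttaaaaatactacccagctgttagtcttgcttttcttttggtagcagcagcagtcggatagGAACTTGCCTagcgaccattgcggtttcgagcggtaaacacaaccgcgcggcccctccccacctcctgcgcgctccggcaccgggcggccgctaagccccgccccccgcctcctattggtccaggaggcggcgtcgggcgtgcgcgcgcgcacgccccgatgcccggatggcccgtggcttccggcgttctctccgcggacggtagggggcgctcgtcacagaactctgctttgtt
Ccng1: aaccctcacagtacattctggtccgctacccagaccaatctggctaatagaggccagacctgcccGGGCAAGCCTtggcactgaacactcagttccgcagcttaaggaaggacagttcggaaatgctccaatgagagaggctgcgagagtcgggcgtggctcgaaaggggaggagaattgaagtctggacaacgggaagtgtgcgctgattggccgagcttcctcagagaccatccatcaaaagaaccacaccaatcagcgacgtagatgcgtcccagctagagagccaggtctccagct

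The half-site stood at position -186 in Mdm2 and -185 in Ccng1. In all, 6 of the 42 member windows held one (14.3%), those of Mdm2, Ccng1, Gadd45a, Sesn1, Bmf and Birc2, against 8.36% of all windows. None of these 6 genes passed the threshold in limma, and the windows of Plk2, Plk3, Sesn2, Casp6, Casp9 and Ripk3 held no such match, which says only that these letters are not in this stretch. The search, made after the expression values were known, covered 13 motifs on both strands: the cAMP response element and its core, the p53 half-site, the serum response element, the NF-kB site, the AP-1 site TGANTCA, the GC box GGGCGG, the ETS site CCGGAA, the TATA box TATAAA, the E2F site TTTCGCGC, the NRF1 site, the ATF4 site TGATGNAA and a paired p53 core. The GC box was the most frequent of them in the member windows, in 27 of 42 (64.3%) against 35.7% of all windows. The ETS site stood in 31% against 14.9% of all windows, the NF-kB site in 7.14% against 5.8% and the TATA box in 7.14% against 13.6%. The AP-1 site stood in 1 window, of Fas (2.38% against 7.81%), and the E2F site in 1 window, of Bcl2l1 (2.38% against 0.323%). The 42 windows belong to 30 genes, so some genes count more than once in these shares. The serum response element, the NRF1 site, the ATF4 site and the paired p53 core stood in 0 of the 42 member windows and in 1.63%, 0.971%, 3.97% and 0.712% of all windows.

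**Figure D2:**
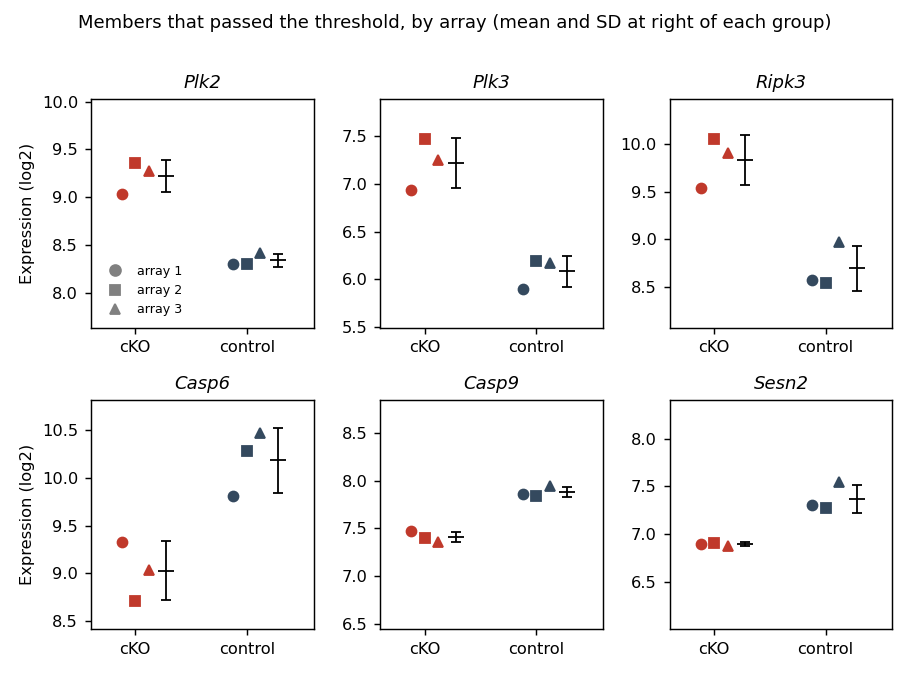
Expression (log2, vertical axis) of the 6 members that passed the threshold on each cKO array and each control array, with the mean and SD of the 3 arrays as a black bar beside them. Each panel spans the same number of log2 units, and in each of them the cKO and control arrays do not overlap.

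The Bcl2 family sets whether mitochondria are breached, and 0 of its 11 measured members passed the threshold in limma (at unadjusted p under 0.05, 1 was higher and 1 lower). Other genes of the family, among them Bcl2l2, Bcl2l10, Bcl2l14, Bok and Hrk, were counted with the further apoptosis genes below. Of all genes 14.2% were called, so a count of 0 among 11 says little of this family. The 3 pro-survival members had differences above 0 under the reported setting and all 13 alternatives. None of these 3 passed under the reported setting. Pro-survival relatives outside the members went the other way. Bcl2l2 was lower on every cKO array (difference -0.36, SE 0.13, adjusted p = 0.12) and below 0 under all 13 alternatives. Bcl2l10 differed by -0.16 and lay at background in both groups. Mcl1, a short-lived protector of many cell types, read 9.93, 10.11 and 10.01 in the cKO arrays and 9.71, 9.62 and 9.77 in the control arrays. Every cKO value was above every control value, with a difference of 0.32 (SE 0.11, adjusted p = 0.11). It passed with quantile normalization (0.43, adjusted p = 0.032), array weights (0.34, adjusted p = 0.021) and trended robust eBayes (adjusted p = 0.041). Bcl2 read 6.94, 6.88 and 6.81 in the cKO arrays and 6.78, 6.63 and 6.43 in the control arrays, barely apart, with a difference of 0.26 (SE 0.13, adjusted p = 0.22). Bcl2l1, which encodes Bcl-xL, read 8.77, 8.77 and 8.69 in the cKO arrays and 8.47, 8.41 and 8.70 in the control arrays. Here 1 control reached the cKO values, and the difference was 0.22 (SE 0.12, adjusted p = 0.28).

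Bak1, the pore-forming gene measured among the members, differed by -0.11 (95% interval -0.51 to 0.28, adjusted p = 0.69), and its sign turned under 3 of the alternatives. Bok, a pore-forming relative outside the members, differed by 0.19 (95% interval -0.14 to 0.52, adjusted p = 0.43). Of the 7 BH3-only members, 5 had differences below 0 and 2 above, with a median of -0.13. Over all genes tested, 12179 of 19938 lay below 0, with a median of -0.09, so this split is not particular to the BH3-only genes. Bbc3 and Pmaip1 encode Puma and Noxa, the BH3-only proteins best known as p53 targets. Bbc3 read 7.72, 7.21 and 8.03 in the cKO arrays and 7.72, 7.82 and 7.80 in the control arrays. The cKO arrays lay on both sides of the controls (difference -0.13, 95% interval -0.60 to 0.35, adjusted p = 0.71), and without cKO 2 or with array weights the sign turned. Pmaip1 read 8.01, 7.68 and 8.07 in the cKO arrays and 8.23, 8.04 and 8.01 in the control arrays, overlapping, with a difference of -0.17 (95% interval -0.51 to 0.16, adjusted p = 0.47). For both genes the interval leaves out a rise of 2-fold.

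Bcl2l11, which encodes Bim, read 6.43, 6.64 and 6.45 in the cKO arrays and 6.43, 6.62 and 6.68 in the control arrays. These values lay close to background. The difference of -0.07 (95% interval -0.36 to 0.22) lay close to 0, and its sign turned with quantile normalization and median centring. Bid, which caspase-8 cleaves to link death receptors to mitochondria, read 7.28, 7.28 and 7.23 in the cKO arrays and 7.44, 7.74 and 7.77 in the control arrays. It was lower on every cKO array, by a difference of -0.39 (SE 0.13, adjusted p = 0.089) that passed only with array weights among the alternatives. Bad, a sensor of growth factor withdrawal, read 7.19, 7.06 and 7.35 in the cKO arrays and 7.38, 7.39 and 7.44 in the control arrays, lower throughout by a small amount (-0.20, SE 0.12, adjusted p = 0.30). Bmf, a BH3-only gene linked to death after detachment, differed by 0.17 (95% interval -0.13 to 0.47, adjusted p = 0.42). Bik differed by 0.08 (adjusted p = 0.72) and lay at background on 2 cKO arrays and all 3 control arrays.

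Of the 5 genes of caspases and their partners, 2 fell and 0 rose in limma (0 also at unadjusted p under 0.05). Of all genes 7.36% fell and 6.81% rose. The median difference was -0.23 for these 5, against -0.09 over all genes. Casp6 encodes an effector caspase that cuts lamins. It read 9.33, 8.71 and 9.04 in the cKO arrays and 9.81, 10.28 and 10.47 in the control arrays. The groups were apart, with the gap between cKO 1 and control 1 the narrowest. The difference was -1.16 (SE 0.22, adjusted p = 0.014), 2.23-fold lower, and the call was lost without control 2 (-1.11, adjusted p = 0.064) or control 3 (-1.02, adjusted p = 0.058). Casp9, the initiator caspase of the mitochondrial route, read 7.47, 7.40 and 7.36 in the cKO arrays and 7.86, 7.84 and 7.94 in the control arrays. Both groups were tight and the cKO arrays were all lower, by a difference of -0.47 (SE 0.10, adjusted p = 0.025), or 1.39-fold. The call was lost without cKO 3 or control 1, 2 or 3 (adjusted p = 0.071 to 0.097) and with median centring (0.11).

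Apaf1, the scaffold on which caspase-9 is activated, differed by -0.23 (95% interval -0.56 to 0.11, adjusted p = 0.34). Casp8, the initiator at death receptors, read 9.39, 9.93 and 9.56 in the cKO arrays and 9.55, 9.39 and 9.58 in the control arrays. The groups overlapped (difference 0.12, 95% interval -0.25 to 0.49, adjusted p = 0.66). Cflar, whose product cFLIP holds caspase-8 in check, had 3 rows, with differences of -0.10 in the brightest and -0.14 and -0.11 in the others (adjusted p = 0.61 for the brightest).

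Of the 6 measured genes of death receptors and necroptosis, Ripk3 rose and no other passed, beside 14.2% of all genes called. Ripk3, the kinase that drives necroptosis, read 9.54, 10.05 and 9.90 in the cKO arrays and 8.57, 8.54 and 8.97 in the control arrays. All cKO arrays were well above all control arrays, with a difference of 1.14 (SE 0.18, adjusted p = 0.0070), 2.20-fold, that passed under all 13 alternatives. Mlkl, the membrane-breaking protein that Ripk3 phosphorylates, read 6.38, 6.69 and 6.68 in the cKO arrays and 6.41, 7.30 and 7.31 in the control arrays. Control 1 lay with the cKO arrays, and the difference was -0.42 (95% interval -1.01 to 0.17, adjusted p = 0.32). Without control 1 it was -0.72 and passed (adjusted p = 0.036).

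Tnfrsf10b, the mouse receptor for the death ligand TRAIL, read 6.66, 6.85 and 6.69 in the cKO arrays and 6.35, 6.40 and 6.31 in the control arrays. The cKO values were all higher, close to background, and the difference of 0.38 (SE 0.11, adjusted p = 0.061) did not pass. Fas read 6.36, 5.93 and 5.92 in the cKO arrays and 5.95, 6.40 and 6.85 in the control arrays, overlapping near background (difference -0.33, 95% interval -0.89 to 0.23, adjusted p = 0.41). Fadd, the adaptor that joins these receptors to caspase-8, read 7.69, 7.69 and 8.03 in the cKO arrays and 8.26, 8.16 and 8.33 in the control arrays. It was lower on every cKO array, and the difference of -0.45 (SE 0.13, adjusted p = 0.070) did not pass. Tnfrsf1a, the TNF receptor that carries a death domain, differed by 0.08 (95% interval -0.21 to 0.36, adjusted p = 0.71).

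The 3 inhibitor of apoptosis genes, whose products block caspases or steer TNF receptor signalling, gave 0 calls in limma (0 also at unadjusted p under 0.05). With 14.2% of all genes called, 0 of 3 says little of them. Xiap differed by -0.04 (95% interval -0.30 to 0.22) and Birc3 by -0.00 (95% interval -0.34 to 0.34). The brightest row of Birc2 read 7.32, 6.02 and 7.44 in the cKO arrays and 7.36, 7.29 and 7.43 in the control arrays. Array cKO 2 alone was low, so that the difference of -0.43 (95% interval -1.25 to 0.39) was 0.02 without it, and the other Birc2 row differed by -0.18.

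**Figure D3:**
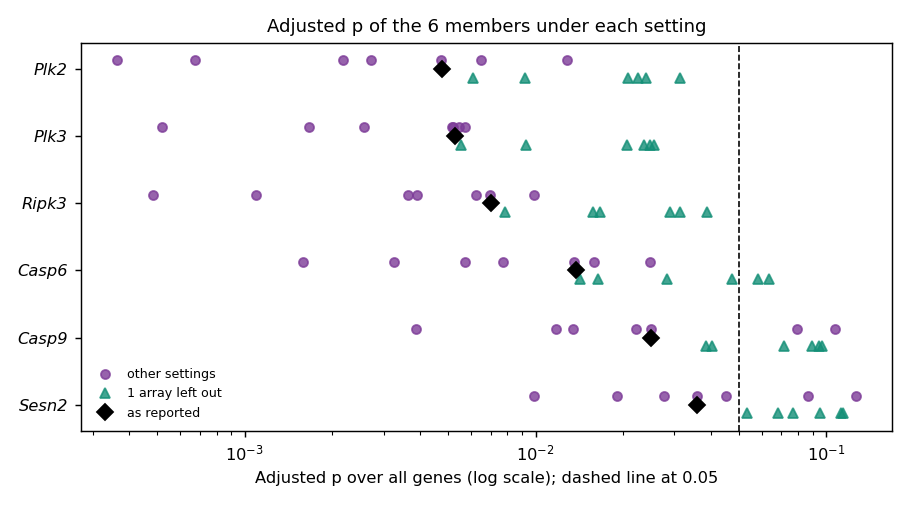
Adjusted p over all genes (log scale, horizontal axis) of the 6 members that passed, under the reported setting (black diamonds), with 1 array left out (green triangles) and under the other settings (purple points). Plk2, Plk3 and Ripk3 stay left of the dashed threshold of 0.05 throughout, while points of Casp6, Casp9 and Sesn2 lie on both sides.

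Of 76 further genes listed for these pathways, 72 were measured, of which 12 rose and 3 fell (20.8%), beside the 14.2% over all genes. Among 29 further p53 pathway genes, 4 rose and 1 fell, with a median difference of 0.08. The gene that fell was Perp, a p53 target that encodes a membrane protein of desmosomes. It read 9.33, 9.20 and 9.27 in the cKO arrays and 10.14, 10.06 and 10.39 in the control arrays, lower throughout by -0.93 (SE 0.13, adjusted p = 0.0040) and called under all 13 alternatives. Phlda3, a p53 target that restrains Akt, read 8.07, 7.97 and 8.26 in the cKO arrays and 7.49, 7.39 and 7.07 in the control arrays, a difference of 0.78 (SE 0.15, adjusted p = 0.014). Zmat3, a p53 target that encodes an RNA-binding protein, rose by 0.56 (SE 0.12, adjusted p = 0.023), Gtse1, a mitotic protein that restrains p53, by 0.60 (SE 0.13, adjusted p = 0.023) and the antiproliferative gene Btg2 by 0.52 (SE 0.14, adjusted p = 0.043). Known p53 targets lay among the genes that rose (Plk2, Phlda3, Zmat3 and Btg2) as well as among those that fell (Sesn2 and Perp). The calls of these 4 further genes that rose were lost without some arrays: Phlda3 without cKO 3 or control 2 (0.057 and 0.055 as adjusted p), Gtse1 without cKO 3, control 2 or control 3 (0.085, 0.10 and 0.088), Zmat3 without any array but cKO 2 (0.054 to 0.11) and Btg2 without any array but cKO 2 (0.059 to 0.15).

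Of 22 further apoptosis genes, 4 rose and 0 fell in limma (2 were lower at unadjusted p under 0.05). Of all genes 6.81% rose and 7.36% fell. The death-associated protein kinase genes Dapk1 and Dapk2 rose by 0.84 (SE 0.16, adjusted p = 0.015) and 0.63 (SE 0.11, adjusted p = 0.011). Casp12, an inflammatory-type caspase, rose by at least 1.28-fold over controls at background (adjusted p = 0.018). Htra2, a mitochondrial protease that counteracts the inhibitors of apoptosis once released, rose by 0.48 (SE 0.12, adjusted p = 0.033). Only the call of Dapk2 held without each array. Dapk1 was lost without control 2 or 3 (adjusted p = 0.071 and 0.065), Casp12 without cKO 3 or control 2 (0.057 and 0.064) and Htra2 without any array but cKO 1 (0.058 to 0.13).

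Of 21 further genes of death receptors, NF-kB feedback and necroptosis, 4 rose and 2 fell, beside 6.81% and 7.36% of all genes. Tnfsf10, the gene of the death ligand TRAIL, read 5.38, 5.43 and 5.42 in the cKO arrays and 6.68, 7.87 and 7.44 in the control arrays. The cKO values lay together at background, so that it was at least 2.45-fold lower (adjusted p = 0.0049). Casp1, the inflammasome caspase that matures interleukin-1 beta, read 6.60, 6.95 and 6.56 in the cKO arrays and 8.40, 8.98 and 9.27 in the control arrays, 4.53-fold lower (difference -2.18, SE 0.23, adjusted p = 0.0018).

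Of the 5 measured receptors of the TNF superfamily on this list, 3 rose, beside 6.81% of all genes called higher. The others on the list, Ltbr (-0.31, adjusted p = 0.097, lower on every cKO array) and Tnfrsf25 (-0.20, adjusted p = 0.46), did not pass. Receptors of this superfamily on other lists did not pass either: Fas, Tnfrsf10b and Tnfrsf1a, given above, and Eda2r (-0.17, adjusted p = 0.60). This grouping was made with the calls in view, so its share says little of these receptors. Tnfrsf12a, the receptor of the cytokine TWEAK, read 9.0, 9.54 and 9.80 in the cKO arrays and 7.50, 7.54 and 7.56 in the control arrays, 3.77-fold higher (difference 1.91, SE 0.20, adjusted p = 0.0017). Tnfrsf1b, the second TNF receptor, which has no death domain, read 7.62, 7.94 and 7.88 in the cKO arrays and 6.56, 6.67 and 6.63 in the control arrays (difference 1.19, SE 0.12, adjusted p = 0.0017). Tnfrsf21, a death-domain receptor, rose by 0.88 (SE 0.11, adjusted p = 0.0036). These 3 receptors, Tnfsf10 and Casp1 passed under all 13 alternatives. The remaining gene that rose was Nfkbia, the NF-kB inhibitor, which rose by 0.63 (SE 0.11, adjusted p = 0.0098) and failed only without control 2 (adjusted p = 0.060). It was picked with its values in view.

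**Figure D4:**
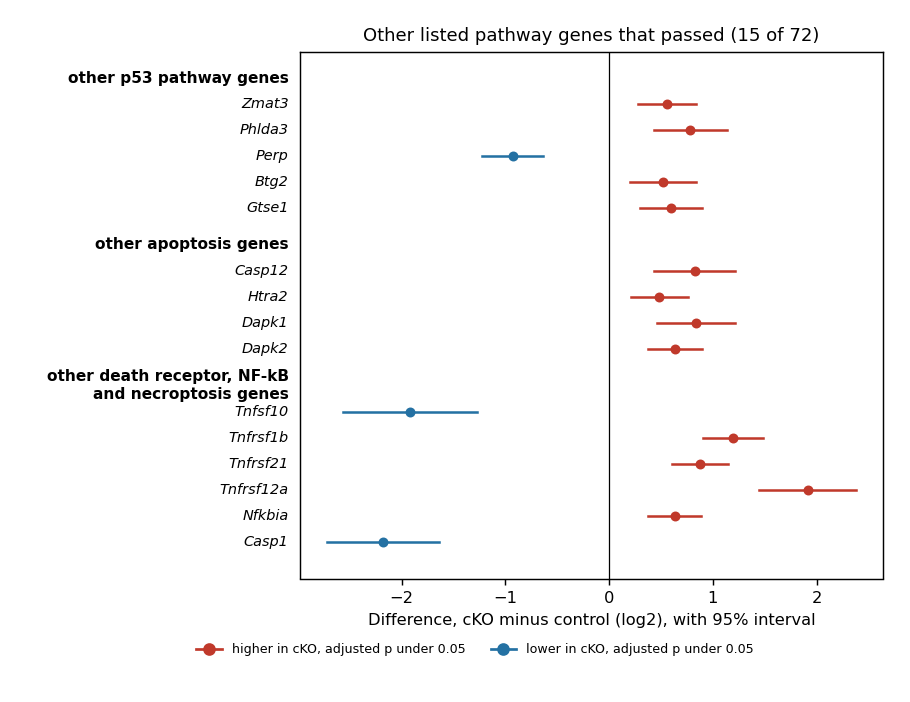
Difference between cKO and control (log2, horizontal axis) with limma's 95% interval for the 15 of 72 further pathway genes that passed the threshold, grouped by list. Casp1, Tnfsf10 and Perp lie left of 0 and the other 12 lie right of it.

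The samples were small intestine, so fewer cells of a type and less RNA per cell cannot be told apart. The cells in which these genes changed are not known. Marker lists of several cell types moved with the groups. Of 8 enterocyte markers 6 fell, and their summed level (log2 of the summed unlogged values) was 14.3 to 14.4 in the cKO arrays and 15.1 to 15.5 in the control arrays. Of 8 macrophage markers 7 rose, with a summed level of 11.7 to 12.1 in the cKO arrays and 11.0 to 11.1 in the control arrays. All 8 mesenchyme markers rose (14.03 to 14.26 in the cKO arrays, 13.3 to 13.6 in the control arrays), as did 7 of 8 smooth muscle markers (14.6 to 14.7 in the cKO arrays, 13.8 to 14.1 in the control arrays). Of 8 neutrophil markers 3 rose, and the summed level was 9.16 to 10.4 in the cKO arrays and 8.75 to 8.78 in the control arrays, with the controls of 5 of the 8 at background. Of 8 epithelium markers the 3 keratin genes Krt8 (0.91), Krt18 (1.19) and Krt20 (1.61) rose, and Cdx2 fell (-0.79). The differences of 5 of the 8 lay below 0, and the median was -0.12. The summed level was 14.3 to 14.4 in the cKO arrays and 13.9 to 14.2 in the control arrays. That sum weighs bright genes such as Krt8 most, so it does not stand for the whole list. Of 7 nerve markers 1 rose. The 8 endothelium, 7 lymphocyte, 7 proliferation and 3 red cell markers measured gave 0 calls in limma, with 4, 0, 5 and 0 of them at unadjusted p under 0.05, all higher in the cKO arrays. The summed level of the proliferation markers was 12.2 to 12.4 in the cKO arrays and 11.8 to 12.1 in the control arrays. That of the endothelium markers was 11.54 to 11.58 in the cKO arrays and 11.32 to 11.36 in the control arrays. Of the 7 lymphocyte markers, 4 lay at background in both groups. No marker was at 0 on any array. The part of these shifts in the changes of Ripk3, Casp6, Casp1 and the other genes above was not tested.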

How the data were processed

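RNA of 3 cKO and 3 control samples of small intestine was measured on Affymetrix Mouse Gene 1.0 arrays. The authors analysed it in dChip, per the labels and the series' design text. The sources used here name no dChip version, background correction or normalization. The deposited table holds 1 value for each of 35512 probe sets and 6 arrays, read as log2 from its range, since no label names the scale. Values were used as deposited. Gene names came from the platform annotation, in which 21789 probe sets had 1 gene symbol, 1621 several and 12102 none. Symbols were updated through the gene identifier (GRCm38.p6 gene table, 21698 matched), and the brightest probe set of each of 19938 genes was kept, with no filter on dim genes. Genes were tested with limma 3.58.1 in R 4.3.3 (lmFit and eBayes, no covariate, two-sided, Benjamini-Hochberg over all genes), a procedure tested on simulated data. The number of arrays, 3 a group, limits the precision.

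The members and lists were chosen with earlier results of these data known. A member is given with all 6 values where it passed the threshold, where its groups do not overlap or where it belongs to a fixed set of central genes, and the rest by their difference, except that all 6 values were also given for Ccng1, Mlkl and Birc2 after they were seen. Of each further list, up to 5 called genes with the smallest p were named. The receptor-gene background was also chosen after the data had been seen. A gene was taken to be at background in a group where all 3 arrays lay at or below that level. A fold is then a lower bound against the higher of that level and the gene's own value. This bound is taken from means and leaves out their sampling error. Promoter windows came from RefSeq.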

Additional observations from a re-analysis of the deposited data

How the results depend on the processing

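Each result was recomputed under 13 alternatives: 7 other settings and each of the 6 arrays left out. Plk2, Plk3 and Ripk3 passed in the same direction under all 13, and Casp6, Casp9 and Sesn2 under 11, 7 and 5. A further 8 members passed under at least 1 alternative, 25 of the 33 kept the sign of their difference throughout, and no called gene reversed. The count of members called higher was 3, and became 5 with quantile normalization, trended robust eBayes or without the dimmest 25% of genes and 6 with array weights. The count called lower was 3, and became 1 with median centring, 5 with array weights, 6 with trended robust eBayes and 5 without the dimmest 25% of genes. Leaving out 1 array gave 3 members higher each time and 0 to 2 lower, with 0 without control 2 or control 3 (6 each at unadjusted p under 0.05) and 1 without cKO 3. Over all genes, 2825 calls became 5834 with array weights and 1226 to 2713 with 1 array left out (1517 without cKO 3, 1226 without control 2 and 1505 without control 3). Of the further pathway genes, 12 higher became 21 with array weights and 4 to 12 with 1 array left out (6, 4 and 7 without cKO 3, control 2 and control 3), and 3 lower became 9 with array weights, 7 with trended robust eBayes and 5 without the dimmest 25% of genes. The Cdh1 difference passed with array weights (-0.89, adjusted p = 0.011) and without cKO 1 (-1.30, adjusted p = 0.012), and ranged from -1.30 to -0.64 with 1 array left out. The causes of these shifts were not tested, except that fewer arrays and fewer genes tested follow from the settings themselves. With the replicate block, 4 members passed, 3 higher and 1 lower, and 2212 genes in all, and the calls of Casp9 (adjusted p = 0.079) and Sesn2 (0.087) were lost, as were those of Gtse1 (0.060), Btg2 (0.059) and Htra2 (0.079) among the further genes named. Arrays with the same number did not deviate together in every pair (correlations of -0.08, 0.13 and 0.14 for numbers 1, 2 and 3), and not every array correlated best with its own number, so the numbers were not taken as pairs. Bik, Fas, Tnfrsf10b and Bcl2l11 lay close to background, which limits what their differences can show.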
